A study of Homo sapiens and Mus musculus with 41 samples.

Results

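HCC1954 is a human cell line from a grade III invasive ductal breast carcinoma with raised HER2, and the comparison described here set its leptomeningeal metastatic derivative, Lep, against its intermediate derivative, Int. The Lep group held 3 libraries and the Int group 2, so 5 of the 41 libraries of the series were compared. They were chosen by their labels alone. Parental HCC1954 cells (Par, 3 libraries) and a brain metastatic derivative (BrM, 2 libraries) entered the same fit and served as background. All cells stably carried green fluorescent protein (GFP). For the derivatives, cells were washed out of the meninges of tumour-bearing mice, grown on bare plastic in RPMI1640 medium with 10% serum until the population was uniformly GFP-positive, and passaged before RNA was taken, so each derivative had a period of selection in the mouse and a period of culture behind it. The labels do not say how many mice stood behind a derivative or how often each had been passed through mice. Per the labels, Par replicates are technical repeats, whereas those of Int and Lep include biological and technical repeats that cannot be told apart by label. The fit pooled the spread between replicates of Par, BrM, Int and Lep, so the p-values do not rest on Int and Lep alone. This pooled spread is technical in part, because it includes the technical repeats of Par. The p-values measure only the spread between the libraries in the fit, and how much of the Int and Lep spread is technical is not known.

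The leptomeninges are the thin membranes around the brain and spinal cord, and the fluid between them is poor in protein and nutrients. Tumour cells that reach this space grow floating in the fluid or attached to the membranes, and complement C3 and the iron-binding lipocalin LCN2 are known from work on such cells. Basal and squamous epithelial cells, which the HCC1954 line partly resembles, express keratins such as KRT5 and KRT14, laminin-binding structures and secreted cytokines of the interleukin-1 family.

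Polyadenylated RNA was sequenced from 500 ng per sample as paired reads of 50 bases. The deposited values are normalized counts, and read totals recovered from them were 31610019, 33871657 and 29013714 reads in Lep replicates 1, 2 and 3, against 67367833 and 67210373 in Int replicates 1 and 2. Depth and stage cannot be told apart in this comparison. Thinning all libraries to the smallest one left 1743 genes called higher and 500 lower, close to the counts given below. Thinning evens out read numbers only, and other differences between libraries that go with depth were not tested. In bulk RNA, fewer cells of a type and less RNA per cell cannot be told apart. Chi-square per degree of freedom between replicates was 2.50 to 3.67 among the 3 Lep pairs and 19.1 for the Int pair. This measure grows with read depth, which was higher in Int. Of 11824 genes with a mean of at least 100, 38 to 45 lay over 2-fold apart between any pair of Lep replicates, against 96 between the Int replicates. Over these genes the SD of the log2 difference was 0.144 to 0.157 for the Lep pairs and 0.213 for the Int pair. The Int libraries thus differed from each other by more than the Lep libraries did. Values for single Int libraries are therefore given for many genes below, but not for every gene whose fold depended on the Int library.

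Of 15561 genes tested, 2357 (15.1%) were called, meaning a Benjamini-Hochberg adjusted p below 0.05 in limma and a log2 fold change (Lep over Int) of at least 1 in size. In Lep, 1817 genes (11.7%) were called higher and 540 (3.47%) lower. The median log2 fold change over all tested genes was 0.01. At an unadjusted p below 0.05 stood 10937 genes (70.3%). The 3 Lep libraries lay above both Int libraries for 6204 genes (39.9%) and below both for 5824 (37.4%), so separation of the libraries on its own sets no gene apart here. Under quantile normalization, which forces all libraries to the same distribution and shifted the median of all genes to −0.09, the calls split into 1315 higher and 954 lower genes, and 58.0% of called genes were higher, against 77.1% without it. A correction for transcript length and GC content shifted the median to −0.15 and gave 1372 higher and 777 lower calls (63.8% higher). The excess of higher calls was therefore smaller under both scalings, and 0 genes were called in opposite directions in any pair of settings that includes the one reported. Errors of log2 fold changes below are standard errors from the fit. Counts of list members below are to be read beside 11.7% higher and 3.47% lower over all tested genes. Under quantile normalization or the length and GC correction, fewer of all genes were called higher and more were called lower.

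**Figure D1:**
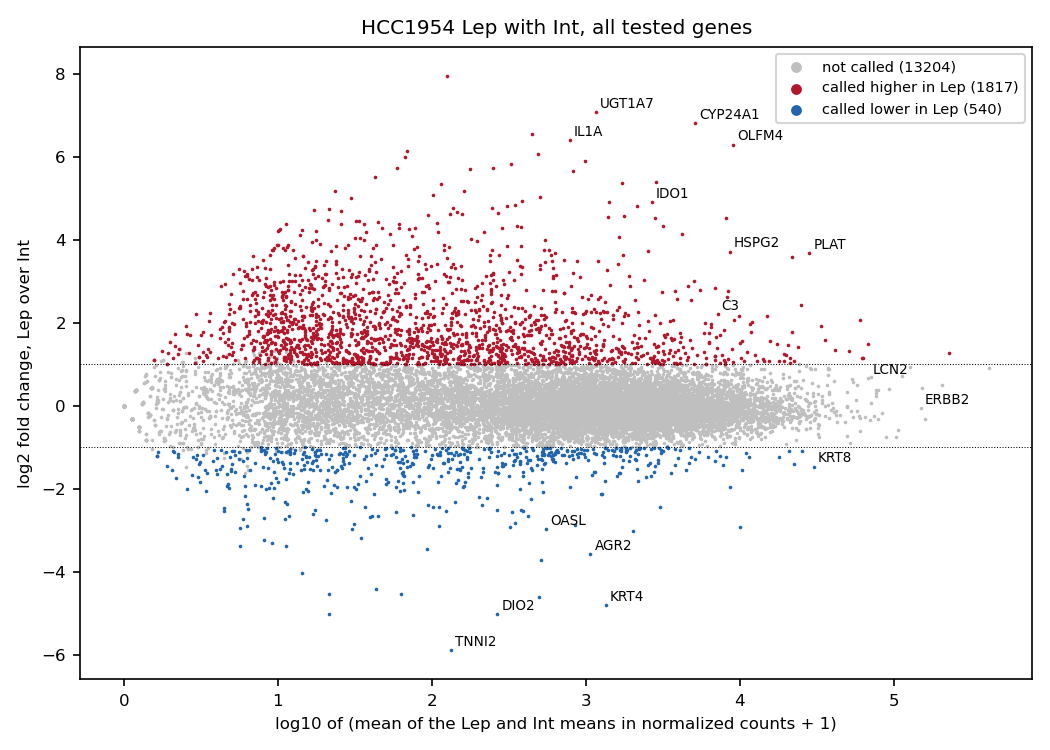
Log2 fold change (Lep over Int) of each of the 15561 tested genes against the log10 of its mean level in normalized counts + 1. Red points are the 1817 genes called higher in Lep, blue points the 540 called lower and grey points the rest; dotted lines mark log2 fold changes of 1 and −1, and ERBB2 lies near 0 at the high end of the level axis.

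The gene that defines the line stayed near its Int level. ERBB2, which encodes the HER2 receptor, had 146037, 150579 and 144250.0 normalized counts in Lep, against 153327 and 152226 in Int, a log2 fold change of −0.06 ± 0.03 that did not pass the test (adjusted p = 0.14; −0.34 to −0.04 over the alternatives). Of 24 tested genes of the HER2 amplicon and breast epithelium, 4 (16.7%) were called higher and 2 (8.33%) lower, beside 11.7% and 3.47% over all tested genes. The median log2 fold change was 0.03 against 0.01 over all tested genes. The 4 were KRT5, KRT17, the estrogen receptor ESR1 (1.19 ± 0.12) and TFAP2B, which was named after its values were seen (1.04 ± 0.40), and the 2 were KRT8 and KRT18, so the calls in this group were mostly keratins. The number of higher calls was 1 under quantile normalization, under the length and GC correction, or without Int replicate 1, and the length and GC correction called 4 lower.

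The largest increases were in genes with low counts in Int. CYP24A1, the enzyme that inactivates the vitamin D hormone, had 10931, 11209 and 8162 normalized counts in Lep, against 68.5 and 112 in Int (log2 fold change 6.82 ± 0.22, adjusted p = 5.5e-11). OLFM4, a secreted glycoprotein of epithelial progenitor zones, had 17437, 20608 and 15718 in Lep, against 224 and 223 in Int (6.31 ± 0.20, adjusted p = 4.5e-11). UGT1A7, a glucuronosyltransferase, had 2439, 2375 and 2084 in Lep, against 16.3 and 15.2 in Int (7.10 ± 0.24), but it shares exons with the other members of the UGT1A locus, so which member the reads came from is uncertain. Each of these genes was low in both Int libraries and high in all 3 Lep libraries, and complete separation was part of the rule that chose the named genes. The Par means were 63.8 ± 15.8 for CYP24A1 and 6.86 ± 2.15 for OLFM4 (SD, n = 3).

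TMPRSS11D, a membrane-bound serine protease of airway epithelium, had 913, 910.4 and 825 normalized counts in Lep, against 5.79 and 12.1 in Int (6.55 ± 0.44). DSG3, a cadherin of desmosomes in squamous epithelium, had 1074, 975 and 838 in Lep, against 10.5 and 16.3 in Int (6.09 ± 0.29). TIMP3, a matrix-bound inhibitor of metalloproteinases, had 671, 668 and 590.1 in Lep, against 8.43 and 12.6 in Int (5.83 ± 0.21). TIMP3 was far higher still in the parental cells, with a mean of 5573, so its Lep level lay between the Int and the Par levels. LOC100506305, an uncharacterised locus, was at 0 in both Int libraries and at 251, 263 and 235 in Lep, which is at least 158-fold higher when Int is set at 3 reads per library.

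Other genes among the 15 largest increases depended on which Int library they were set against. CXCR7 (also ACKR3), a receptor that takes up the chemokine CXCL12, had 2032, 1881 and 1853 normalized counts in Lep, against 12.1 and 76.1 in Int (5.92 ± 0.50), and its log2 fold change was 4.64 without Int replicate 1 and 7.20 without Int replicate 2. MCAM, an adhesion molecule also known as CD146, had 1703, 1606 and 1545 in Lep, against 17.9 and 51.9 in Int (5.68 ± 0.30, with 4.93 and 6.42 in the same order). PPP2R2B, a regulatory subunit of a protein phosphatase, UGT2B7, a second glucuronosyltransferase, and ALPK2, a protein kinase, were each at 0 in 1 Int library. Their log2 fold changes were 7.09, 7.04 and 4.63 without Int replicate 1, and 5.23, 4.98 and 6.85 without Int replicate 2. The order of the largest increases is therefore not fixed by these 2 Int libraries. The remaining 3 of the 15 were IL1A and KRT34, described with their groups, and XG, a blood group antigen (5.75 ± 0.40).

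**Figure D2:**
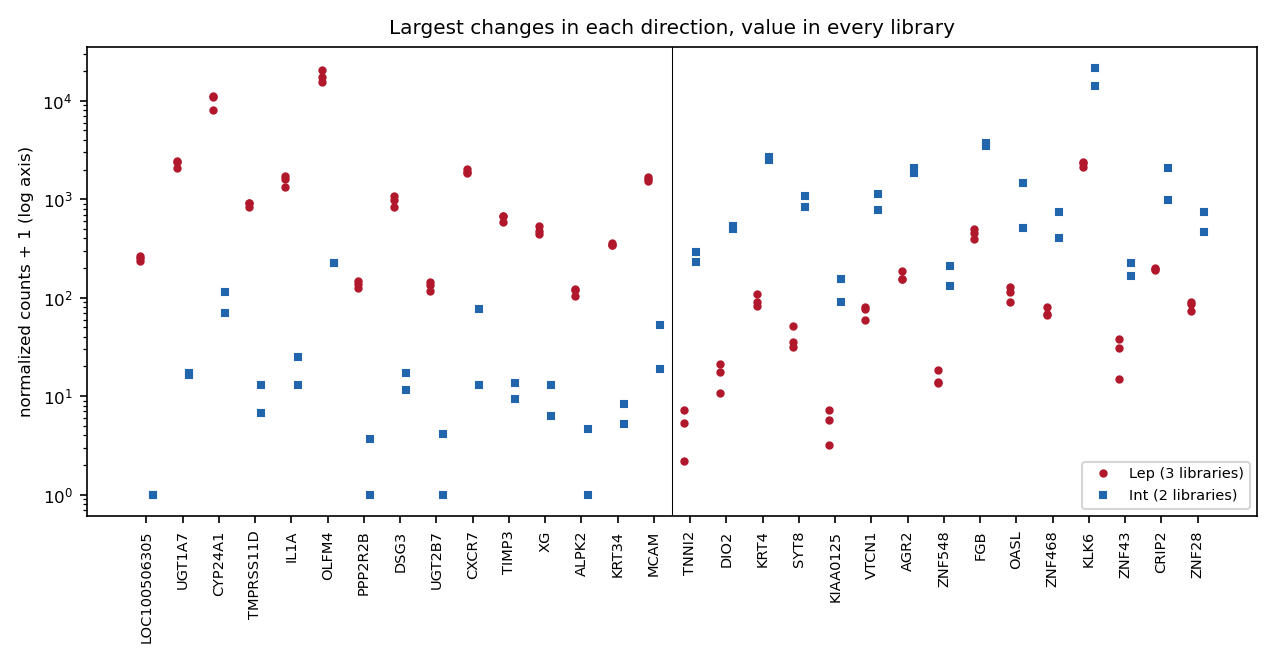
Normalized counts + 1 (log axis) in every library for the 15 largest increases (left of the line) and the 15 largest decreases (right) that pass the naming rule. Red circles are the 3 Lep libraries and blue squares the 2 Int libraries; most increases start from under 100 in Int, while the decreases leave most genes detectable in Lep.

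Among the largest decreases, KRT4, a keratin of mucosal stratified epithelium, had 80.9, 108 and 90 normalized counts in Lep, against 2686 and 2515 in Int (log2 fold change −4.80 ± 0.10, adjusted p = 1.3e-12). Its Par mean was 656, above the Lep and below the Int level. TNNI2, a fast skeletal troponin subunit, had 1.17, 4.32 and 6.25 in Lep, against 292 and 232 in Int (−5.90 ± 0.36). DIO2, the deiodinase that activates thyroid hormone, had 16.4, 9.73 and 20 in Lep, against 530.3 and 499 in Int (−5.03 ± 0.21), and its Par mean was 3806. All 3 genes were at similar levels in the 2 Int libraries and low in every Lep library.

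AGR2, an endoplasmic reticulum protein needed for mucin folding, had 155, 154 and 188 normalized counts in Lep, against 2092 and 1860.0 in Int (−3.58 ± 0.08). VTCN1, also B7-H4, a surface protein that restrains T cells, had 78.6, 58.4 and 76.3 in Lep, against 1139 and 776 in Int (−3.72 ± 0.14). KLK6, a secreted kallikrein protease, had 2149, 2379.8 and 2345 in Lep, against 21408 and 14167 in Int (−2.93 ± 0.12). AGR2 and KLK6 had Par means of 2331 and 18460.2, so for both it was Lep and not Int that stood apart from the parental level. FGB, the fibrinogen beta chain, was lower in Lep than in Int (−3.01 ± 0.13) but stood above the parental level in both. Its means were 101 in Par, 3609 in Int and 448 in Lep. SYT8, a synaptotagmin (−4.62 ± 0.16), and CRIP2, a LIM-domain protein (−2.87 ± 0.20), also fell. KIAA0125 fell by 4.53 ± 0.29 on the log2 scale. Without Int replicate 1, the log2 fold changes of CRIP2 and KIAA0125 were −2.32 and −4.92. Without Int replicate 2, they were −3.41 and −4.15.

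The other 4 of the 15 largest decreases besides OASL, described below, were the zinc-finger genes ZNF548 (−3.46 ± 0.19), ZNF468 (−2.93 ± 0.18), ZNF43 (−2.90 ± 0.32) and ZNF28 (−2.83 ± 0.15). ZNF468 had 66.8, 80 and 66.3 normalized counts in Lep, against 735 and 404 in Int and a Par mean of 1769. The genes with symbols made of ZNF and a number, a group chosen after these values were seen, held 471 tested members, of which 6 (1.27%) were called higher and 47 (9.98%) lower, against 11.7% and 3.47% over all tested genes, with a median log2 fold change of −0.23 against 0.01 over all tested genes. In RefSeq order, ZNF28 and ZNF468 stand next to each other, with ZNF600 on one side (−2.63 ± 0.26) and ZNF320 on the other (−2.68 ± 0.26), both also called lower, and ZNF816 close by at −2.66 ± 0.35; these neighbours were named after their values were seen. ZNF611, next to ZNF600, had a log2 fold change of −0.78 ± 0.09 and was not called. Members of this family share sequence, and reads that fit several of them can be lost or split in counting.

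Most tested collagen genes rose. Of 29 tested collagen chains, 21 (72.4%) were called higher in Lep and 0 lower, with a median log2 fold change of 1.31 against 0.01 over all tested genes, and their summed level was 114902 to 125022 normalized counts in Lep, against 42237 to 54598 in Int. COL17A1, the transmembrane collagen of hemidesmosomes, had 8498, 7479 and 8003 in Lep, against 574 and 1991 in Int (2.90 ± 0.33). COL8A1, a short-chain collagen, had 491, 538 and 460.0 in Lep, against 21.6 and 69.2 in Int (3.64 ± 0.36). The Int libraries were over 3-fold apart for both genes: without Int replicate 1 the log2 fold changes were 2.00 and 2.82, and without Int replicate 2 they were 3.80 and 4.46. COL4A4, a basement membrane chain (3.55 ± 0.24), and COL6A2, a microfibrillar chain (2.85 ± 0.14), also rose. The fibrillar chain COL1A1 had 1320.4, 1307 and 1268 in Lep, against 512 and 682 in Int (1.13 ± 0.09), and was not called under the length and GC correction (0.79) or without Int replicate 1 (0.93), while COL1A2 was at 0 in all 5 libraries.

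Of 30 genes that process and cross-link collagen, 8 were called higher and 1 lower (median 0.66). They included LOXL2, a lysyl oxidase that cross-links collagen (5223, 5017 and 4913 in Lep, against 2132 and 1866 in Int, 1.34 ± 0.06), TLL1, a protease that trims procollagen (3.77 ± 0.32), PCOLCE2, an enhancer of that trimming (1.25 ± 0.16), and SERPINH1, the collagen chaperone (1.23 ± 0.10). PCOLCE2 was not called under quantile normalization (0.85), and SERPINH1 was not called under the length and GC correction (0.98) or without Int replicate 1 (0.97).

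Among 16 laminin and basement membrane genes, 5 were called higher and 0 lower (median 0.90). HSPG2, which encodes perlecan, had 16472, 15943 and 15334 normalized counts in Lep, against 856 and 1694 in Int (3.72 ± 0.18, adjusted p = 1.7e-09). LAMA3, a chain of the laminin that anchors basal epithelium, rose by 1.05 ± 0.06 and was not called under the length and GC correction (0.73) or without Int replicate 1 (0.94). PXDN, a peroxidase that cross-links collagen IV, had 9956, 9704 and 9592 in Lep, against 3092 and 2656 in Int (1.77 ± 0.05). Quantile normalization called 2 genes of this list lower and the length and GC correction 1.

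Of 37 matrix glycoproteins and proteoglycans, 17 were called higher and 2 lower (median 0.78). TNC, the adhesion-modulating protein tenascin-C, had 19939, 17751 and 18067 normalized counts in Lep, against 4632 and 4819 in Int (1.97 ± 0.04). SPARC, a collagen-binding protein, had 168, 143 and 133 in Lep, against 5.79 and 7.34 in Int (4.30 ± 0.25). LTBP2, a microfibril protein, and FBLN2, a fibulin, rose by 2.24 ± 0.08 and 1.99 ± 0.07. MGP, an inhibitor of calcification, ran the other way, with 170.0, 181 and 141 in Lep, against 469 and 404 in Int (−1.41 ± 0.11).

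Genes of both matrix proteases and their inhibitors rose. Of 43 tested, 22 (51.2%) were called higher and 1 lower, with a median log2 fold change of 1.02. Quantile normalization called 2 lower and the length and GC correction 3. PLAT, the tissue plasminogen activator, had 54122, 57463 and 46119.5 normalized counts in Lep, against 3678 and 4529 in Int (3.68 ± 0.10, adjusted p = 8.7e-12). The metalloproteinase MMP2 had 4557, 4296 and 3968 in Lep, against 464 and 578 in Int (3.04 ± 0.08). Both genes were high in all 3 Lep libraries, and the Int libraries were close to each other.

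Other metalloproteinases rested more on the choice of Int library. MMP3 (stromelysin) had 3025, 2641 and 2395 normalized counts in Lep, against 28.4 and 261 in Int (4.93 ± 0.60, with 3.35 without Int replicate 1 and 6.51 without Int replicate 2). MMP1, the interstitial collagenase, had 2207, 2088 and 1889 in Lep, against 204 and 851 in Int (2.30 ± 0.44, with 1.27 and 3.33 in the same order).

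Integrins, the receptors for these matrix proteins, had 7 of 22 members called higher and 0 lower (median 0.63), while quantile normalization called 3 and the length and GC correction 2 of them lower. ITGB3, the integrin beta-3 subunit, had 3757, 3684 and 2683 normalized counts in Lep, against 99.5 and 61.9 in Int (5.39 ± 0.21). ITGA1, a collagen-binding subunit (2.03 ± 0.15), ITGA5, the fibronectin-binding subunit (1.51 ± 0.08), and ITGA2B (1.50 ± 0.11) also rose. The Par mean of ITGB3 was 44.8, below both Int libraries.

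Many mesenchymal genes were higher, while epithelial junction genes were called lower at about the share over all tested genes. Of 23 mesenchymal genes and regulators, 12 (52.2%) were called higher and 0 lower (median 1.17). CALD1, the actin-binding protein caldesmon, had 5802, 5422 and 5014 normalized counts in Lep, against 184 and 293 in Int (4.54 ± 0.14). AXL, a receptor tyrosine kinase, had 1168, 1044 and 1079 in Lep, against 79.5 and 96.5 in Int (3.63 ± 0.12). The intermediate filament gene VIM, named here after its values were seen, had 1842, 1535 and 1483 in Lep, against 229 and 499 in Int (2.25 ± 0.23).

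Of 39 epithelial junction genes, 1 was called higher and 1 lower, and 37 were not called (median −0.16). Each direction thus held 2.56% of the list, against 11.7% higher and 3.47% lower over all tested genes. The higher one was DSG3. The lower one was ESRP2, an epithelial splicing factor, with 1284, 1296 and 1578 normalized counts in Lep, against 4279 and 4026 in Int (−1.59 ± 0.07). The length and GC correction called 2 lower. CDH1, which encodes E-cadherin and was named after its values were seen, had 20839, 20199.6 and 20351 in Lep, against 24984 and 23149 in Int, a log2 fold change of −0.23 ± 0.03 that did not reach the size required for a call.

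Actin and contractile genes had 8 of 32 members called higher and 0 lower (median 0.53), among them FHL1, a LIM-domain muscle protein (3.63 ± 0.27), TPM2, a tropomyosin (767, 907 and 824 in Lep, against 148 and 218 in Int, 2.20 ± 0.15), and TAGLN, transgelin (1.33 ± 0.14). Of 25 target genes of TGF-beta and YAP, 9 were called higher and 0 lower (median 0.69), with 1 lower under the length and GC correction. AXL, LTBP2 and INHBA were among the 9, so this list partly repeats the lists above.

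Keratins changed in both directions. Of 31 tested, 11 were called higher and 7 lower, with a median log2 fold change of −0.25. KRT14, a basal keratin, had 40529.6, 37881 and 38320.0 normalized counts in Lep, against 1355 and 7755 in Int (3.58 ± 0.46). Its partner KRT5 had 101674, 92187 and 97116 in Lep, against 21138 and 55316 in Int (1.50 ± 0.25), and KRT17 had 88399, 86927 and 81507 in Lep, against 30231 and 49131 in Int (1.15 ± 0.13). Both Int libraries lay below every Lep library, and Int replicate 2 was the nearer to Lep for all 3 genes. KRT13, a keratin of stratified mucosa (2.24 ± 0.21), and the hair keratins KRT31 (4.64 ± 0.47) and KRT34 (5.72 ± 0.38) also rose.

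The simple-epithelium pair KRT8 and KRT18 fell. KRT8 had 15702, 15738 and 16729 normalized counts in Lep, against 46702 and 41907 in Int (−1.46 ± 0.04, adjusted p = 2.4e-11). KRT18 had 10504, 10589.6 and 11129.8 in Lep, against 26057 and 24139 in Int (−1.22 ± 0.04). With KRT4, these were the 3 lower keratins with a mean of at least 100, and for all 3 the Int libraries were close to each other. Without Int replicate 1, the log2 fold changes were 2.33 for KRT14, 3.82 for KRT31 and 0.81 for KRT5, and without Int replicate 2 they were 4.84, 5.45 and 2.20. KRT5 and KRT17 were not called without Int replicate 1 (KRT17 0.80), and KRT17 was not called under quantile normalization (0.99) or the length and GC correction (0.91). The number of lower keratins was 4 with a pseudocount of 5 or a minimum value of 50, and 11 under the length and GC correction.

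**Figure D3:**
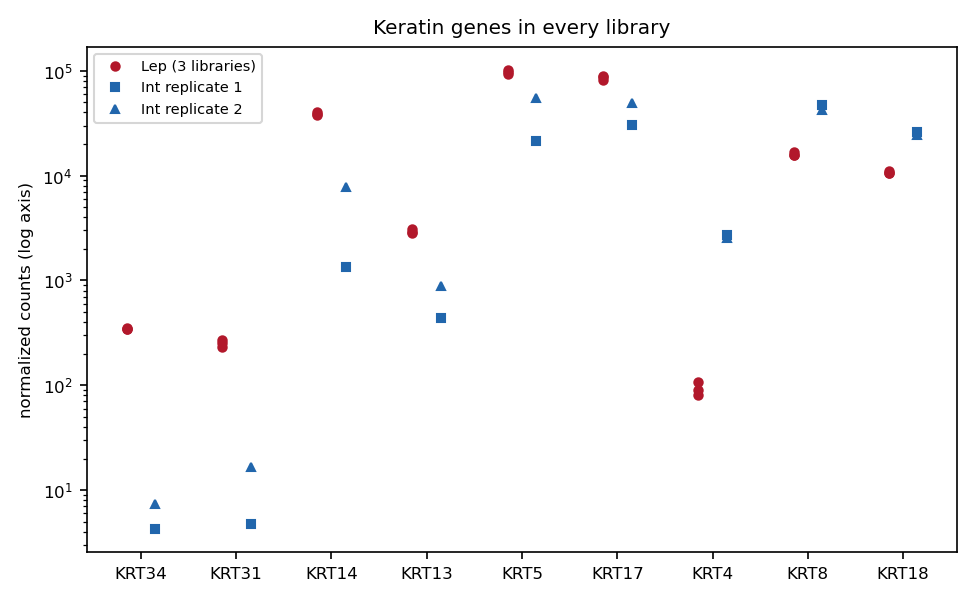
Normalized counts (log axis) of the 9 named keratin genes in every library. Red circles are the 3 Lep libraries, blue squares Int replicate 1 and blue triangles Int replicate 2; the first 6 genes are higher in Lep, with Int replicate 2 nearer to Lep than Int replicate 1, and KRT4, KRT8 and KRT18 are lower in Lep.

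Genes of squamous differentiation had 21 of 31 members (67.7%) called higher and 3 lower (median 1.35). CALML5, a calcium-binding protein of differentiating skin, had 2991, 3232 and 3443 normalized counts in Lep, against 173 and 382 in Int (3.64 ± 0.33). KLK10, a kallikrein protease, had 9449, 9899.8 and 9592 in Lep, against 1384 and 1397 in Int (2.79 ± 0.04, adjusted p = 3.2e-13). PI3, the elastase inhibitor elafin, had 13528, 15383 and 13516 in Lep, against 1968 and 2664 in Int (2.62 ± 0.10). SPRR2E, a small proline-rich protein of the cornified envelope (3.13 ± 0.30), also rose, but the members of its family are close copies and its reads may be split among them. TP63, the transcription factor of basal and squamous epithelium, was named after its values were seen and had 29912, 27113 and 27815 in Lep, against 12157 and 15646 in Int (1.03 ± 0.08).

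The 3 lower members of the squamous list were KLK6, CSTA, a cysteine protease inhibitor (1067, 1128 and 1123 in Lep, against 2333 and 2217 in Int, −1.04 ± 0.06), and SLURP1, named after its values were seen (−1.08). CSTA was not called under the length and GC correction (−0.94). Of 16 S100 genes, which encode calcium-binding proteins, 5 were called higher and 0 lower (median 0.66), and 3 higher under quantile normalization. S100A8, a subunit of calprotectin, had 320439, 341341 and 310755 in Lep, against 124746 and 144806 in Int (1.27 ± 0.06, and 0.86 under quantile normalization, where it was not called). S100A2 (1.79 ± 0.18) and S100A4 (1.89 ± 0.10) also rose, and S100A7A (1.08 ± 0.05) was not called under the length and GC correction (0.93). For S100A2 the log2 fold change was 1.31 without Int replicate 1 and 2.28 without Int replicate 2.

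Many cytokine genes rose. In the interleukin-1 family, 7 of 21 were called higher and 1 lower (median 0.38). IL1A, an alarm cytokine held in epithelial cells, had 1740.2, 1594 and 1330.1 normalized counts in Lep, against 12.1 and 24.1 in Int (6.41 ± 0.32, adjusted p = 2.1e-09). IL1B, its secreted relative, had 6186, 5888 and 4710.5 in Lep, against 71.1 and 237 in Int (5.41 ± 0.34, with 4.55 without Int replicate 1 and 6.27 without Int replicate 2). IL36G, an epithelial member of the family, had 1013, 966 and 1080.1 in Lep, against 38.4 and 101 in Int (4.0 ± 0.36, with 3.32 and 4.69 in the same order).

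Inhibitors were among the higher members. IL1R2, a decoy receptor that binds interleukin-1 without signalling, had 217, 185 and 190.0 normalized counts in Lep, against 31.1 and 45.1 in Int (2.36 ± 0.22). IL1RN, the receptor antagonist, was named after its values were seen and had 978, 983 and 865 in Lep, against 448 and 435 in Int (1.09 ± 0.08). The lower member was IL33, also named after its values were seen (42.2, 45.4 and 28.8 in Lep, against 98.5 and 94.4 in Int, −1.32 ± 0.26). Quantile normalization called 2 members lower.

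Of 29 other cytokine and acute-phase genes, 17 (58.6%) were called higher and 0 lower, with a median log2 fold change of 1.61, or 1.30 when the member with Int at 0 is set at its bound. Quantile normalization and the length and GC correction each called 1 member lower. CSF2, the granulocyte-macrophage growth factor, had 283, 266 and 240.0 normalized counts in Lep, against 8.43 and 8.92 in Int (4.77 ± 0.26). The interleukin-10 relatives IL19, IL20 and IL24, which act on epithelium, rose by 4.94 ± 0.40, 3.86 ± 0.22 and 3.32 ± 0.26. IL24 had 1247, 1096 and 1000.1 in Lep, against 82.7 and 146 in Int. For IL19, with 727, 734 and 786 in Lep against 14.7 and 36.7 in Int, the log2 fold change was 4.31 without Int replicate 1 and 5.57 without Int replicate 2.

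Chemokines split, with 7 of 19 called higher and 3 lower (median 0.52), and 4 higher without Int replicate 1. IL8, which attracts neutrophils, had 75841, 75774 and 68483 normalized counts in Lep, against 28046 and 30223 in Int (1.33 ± 0.05). CXCL3, another neutrophil chemokine, had 1074, 1088 and 1290.1 in Lep, against 328 and 483 in Int (1.53 ± 0.13). CCL2, which attracts monocytes, rose by 1.13 ± 0.11 and was not called without Int replicate 1 (0.86). The 3 lower chemokines attract T cells. CCL5 had 337, 356 and 304 in Lep, against 520.3 and 1263 in Int (−1.29 ± 0.27), and was not called without Int replicate 2 (−0.65). CXCL10 and CXCL11, both named after their values were seen, had log2 fold changes of −4.41 ± 0.40 and −1.89 ± 0.31. CXCL10 had 2.35, 6.49 and 1.25 in Lep, against 69.0 and 93.4 in Int.

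Promoter windows of IL1A and CXCL3 are shown because both genes rose and each window holds a match to a motif of a factor known to act on cytokine genes. The windows run from 250 bases before to 50 after the start of the gene, 5′ to 3′ on the gene's strand, from RefSeq on GRCh38.p14. Capitals mark the AP-1 motif TGANTCA in IL1A (chr2:112784351-112784650, minus strand, 2 matches) and an NF-kB motif, GGGA and TTTCC with any single base between them, in CXCL3 (chr4:74038640-74038939, minus strand, 1 match).
IL1A: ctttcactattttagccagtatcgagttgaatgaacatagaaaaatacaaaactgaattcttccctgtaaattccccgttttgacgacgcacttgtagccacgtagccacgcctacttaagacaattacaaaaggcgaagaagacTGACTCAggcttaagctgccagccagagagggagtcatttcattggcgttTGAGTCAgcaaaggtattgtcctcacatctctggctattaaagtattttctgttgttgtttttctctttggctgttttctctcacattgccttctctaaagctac
CXCL3: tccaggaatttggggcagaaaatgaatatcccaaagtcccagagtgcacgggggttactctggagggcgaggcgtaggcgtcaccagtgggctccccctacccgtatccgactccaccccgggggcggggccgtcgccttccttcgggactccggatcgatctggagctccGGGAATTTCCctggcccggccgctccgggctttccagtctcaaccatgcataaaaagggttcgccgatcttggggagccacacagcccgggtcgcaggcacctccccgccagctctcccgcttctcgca
On both strands together, the AP-1 motif was found in 7.71% and the NF-kB motif in 0.558% of the 35116 promoter windows of the table. List members were counted per gene, with a match in any of its windows. Some genes have several windows, so the shares of members and of all windows are in unlike units. The NF-kB motif was in windows of 3 of the 5 higher chemokines that had a window, and in 2 of the 6 chemokines that were not called. The AP-1 motif was in 7 of 18 higher squamous genes with a window and in 2 of 4 that were not called. It was in 2 of 7 higher members of the interleukin-1 family and 2 of 11 not called, and in 2 of 13 higher members of the other cytokines and 3 of 7 not called. No match was found in the interleukin-1 family for the NF-kB motif as spelled here. A match describes the letters in the window and does not show binding.

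NF-kB is held in the cytoplasm by inhibitor proteins until kinases release it, and of 27 genes for its subunits and feedback inhibitors 4 were called higher (14.8%, against 11.7% over all tested genes) and 0 lower (median 0.19), and 2 higher under the length and GC correction. TNFAIP3, an inhibitor induced by the pathway, had 6277, 6168 and 6357 normalized counts in Lep, against 2141 and 2525 in Int (1.43 ± 0.06). NFKBIZ, a nuclear co-factor (1.04 ± 0.07), and IKBKB, the kinase that releases NF-kB (1.09 ± 0.04), were not called under the length and GC correction (0.90 and 0.88), and NFKBIZ was not called without Int replicate 1 (0.88).

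Interferon-stimulated genes had more lower than higher calls. Of 50 tested, 9 (18.0%) were called lower and 2 higher, with a median log2 fold change of −0.33 against 0.01 over all tested genes. The summed level of the list was 86675 to 90842.5 normalized counts in Lep and 86249 to 102434 in Int. In Par the sum was lower, at 72683 to 74079. OASL, a member of the oligoadenylate synthetase family without its enzyme activity, had 90.3, 112 and 129 normalized counts in Lep, against 505 and 1473 in Int (−2.97 ± 0.32). Its Par mean was 162, so Int stood farther from the parental level than Lep did. The log2 fold change over Par was 2.41 ± 0.32 in Int and −0.56 ± 0.28 in Lep. IFIT1, which binds foreign RNA, had 104, 108 and 118 in Lep, against 501 and 964 in Int (−2.65 ± 0.21). RSAD2, the antiviral enzyme viperin, had 37.5, 21.6 and 31.3 in Lep, against 117 and 228 in Int (−2.44 ± 0.31). IFI27 had 141, 141 and 145 in Lep, against 414 and 792 in Int (−2.0 ± 0.20).

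The Lep libraries were close together for IFIT1 and IFI27 and wider apart for OASL and RSAD2. In each of these 4 genes Int replicate 2 was the higher of the Int libraries. The log2 fold change of OASL was −3.74 without Int replicate 1 and −2.20 without Int replicate 2. The number of lower members was 6 to 13 over the alternatives. The 2 higher members were GBP2, a guanylate-binding protein (2091, 2234 and 1901 in Lep, against 949.6 and 936 in Int, 1.13 ± 0.08), and TRIM22 (1.07 ± 0.14), which was not called under quantile normalization (0.90) or without Int replicate 1 (0.75). The remaining 39 members were not called.

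Interferon acts on genes through a response element, searched here as GAAA and GAAA with any 2 bases between them, and 3 promoter windows of lower members are shown with their matches in capitals. They are IFIT1 (chr10:89392373-89392672, plus strand, 2 matches), RSAD2 (chr2:6877527-6877826, plus strand, 1 match) and IFI27 (chr14:94110486-94110785, plus strand, 2 matches), with the same limits and source as above.
IFIT1: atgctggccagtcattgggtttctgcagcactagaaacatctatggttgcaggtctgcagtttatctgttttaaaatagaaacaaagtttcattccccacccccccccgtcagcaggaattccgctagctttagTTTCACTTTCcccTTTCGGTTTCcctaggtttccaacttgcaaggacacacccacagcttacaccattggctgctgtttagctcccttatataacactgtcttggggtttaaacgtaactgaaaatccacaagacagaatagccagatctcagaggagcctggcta
RSAD2: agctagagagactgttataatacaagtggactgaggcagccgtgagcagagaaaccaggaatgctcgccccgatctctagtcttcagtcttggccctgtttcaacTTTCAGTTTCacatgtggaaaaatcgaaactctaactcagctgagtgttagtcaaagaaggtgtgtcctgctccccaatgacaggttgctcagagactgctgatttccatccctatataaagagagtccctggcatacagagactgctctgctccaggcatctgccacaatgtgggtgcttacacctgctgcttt
IFI27: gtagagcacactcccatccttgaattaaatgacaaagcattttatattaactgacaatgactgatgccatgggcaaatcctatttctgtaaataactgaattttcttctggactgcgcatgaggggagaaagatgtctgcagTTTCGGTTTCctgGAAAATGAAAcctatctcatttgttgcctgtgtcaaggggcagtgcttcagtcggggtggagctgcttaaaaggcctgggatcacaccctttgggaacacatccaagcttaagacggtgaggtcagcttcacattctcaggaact
On both strands together the element was in 3.57% of all 35116 promoter windows, in 6 of the 7 lower members that had a window (85.7%) and in 20 of the 30 members that were not called (66.7%). Members were again counted per gene and the background per window.

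Of 34 antigen presentation genes, 9 were called higher and 0 lower (median 0.43). HLA-DPA1 (1.97 ± 0.24), HLA-DRB5 (1.82 ± 0.19) and HLA-DMB (1.50 ± 0.22) belong to the class II system, which presents peptides to helper T cells. HLA-DMB had 227, 245 and 220.0 normalized counts in Lep, against 62.7 and 104 in Int. HLA-DRB5 shares sequence with other DRB genes, so its reads are uncertain. MICB, a stress ligand for natural killer cells, had 739, 626 and 618 in Lep, against 206 and 194 in Int (1.72 ± 0.08).

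Complement components had 6 of 16 members called higher and 1 lower (median 0.60, or 0.70 without the member at 0 in all 5 libraries). C3, the central protein of the cascade, had 11417, 11949.8 and 11921 normalized counts in Lep, against 2158 and 3001 in Int (2.21 ± 0.10, adjusted p = 5.1e-10). Its Par mean was 5976, so the Int level lay below the parental one. C1R, a protease of the first component, rose by 1.16 ± 0.09 and was not called under the length and GC correction (0.93) or without Int replicate 1 (0.95). CFI, which cleaves activated C3, fell to 1121, 1129.9 and 1029 in Lep, against 2799 and 2650.0 in Int (−1.32 ± 0.07).

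Of 12 complement receptors and regulators, 4 were called higher and 1 lower (median 0.59). SERPING1, the inhibitor of the first component, had 206, 188 and 143 normalized counts in Lep, against 10.5 and 24.7 in Int (3.37 ± 0.32), and CR2, a receptor for C3 fragments, rose by 2.07 ± 0.14. CLU, clusterin, which blocks the terminal complex, fell by 1.15 ± 0.06 on the log2 scale. C3 and the complement inhibitors CFI, SERPING1 and CLU thus did not all move in 1 direction.

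Iron genes were called at about the background share, with 3 of 25 higher (12%, against 11.7% over all tested genes) and 1 lower (median 0.28). LCN2, the iron-binding lipocalin, had 84360.2, 86873 and 80657 normalized counts in Lep, against 51113 and 54002 in Int. Its log2 fold change of 0.68 ± 0.04 did not reach the size required for a call. Every Lep library was above both Int libraries, which held for 39.9% of all tested genes. SLC22A17, the LCN2 receptor, had 205, 239 and 229 in Lep, against 22.6 and 33.0 in Int (2.99 ± 0.19). SLC40A1, the iron exporter ferroportin (2.04 ± 0.07), and CYBRD1, an iron reductase (1.76 ± 0.05), rose, and CP, the ferroxidase ceruloplasmin, fell to 2461, 2779.8 and 2501 in Lep, against 7975 and 5549 in Int (−1.37 ± 0.13). The number of higher members was 5 with reads thinned to the smallest library or without Int replicate 2.

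Tryptophan and prostaglandin enzymes had 7 of 30 members called higher and 4 lower (median 0.46). IDO1, which starts tryptophan breakdown, had 5031, 5711 and 4845 normalized counts in Lep, against 147 and 195 in Int (4.92 ± 0.13, adjusted p = 1.3e-11). TDO2, an enzyme of the same step, had 174, 186 and 135 in Lep, against 15.8 and 15.2 in Int (3.32 ± 0.52). QPRT, late in the pathway, rose (1.35 ± 0.07), while KMO in the middle of the pathway fell to 334, 331 and 465 in Lep, against 829 and 869 in Int (−1.19 ± 0.12). WARS, the tryptophanyl-tRNA synthetase, fell by 1.10 ± 0.04 on the log2 scale. AHRR, a repressor of the aryl hydrocarbon receptor, fell by 1.11 ± 0.17 and was not called without Lep replicate 3 (−0.98). PTGS2, the inducible cyclooxygenase, had 16210.4, 15923 and 15284 in Lep, against 5711 and 7244 in Int (1.30 ± 0.07).

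Vitamin D and retinoid genes had 5 of 26 members (19.2%) called higher and 1 (3.85%) lower (median 0.25), beside 11.7% and 3.47% over all tested genes. Under the length and GC correction, 3 were called higher. Beside CYP24A1, CYP27B1, the enzyme that makes the active hormone, had 572, 553 and 464 normalized counts in Lep, against 175 and 219.8 in Int (1.42 ± 0.14). TXNIP, a vitamin D-induced regulator of thioredoxin, had 19989.8, 20467 and 16934 in Lep, against 4393 and 5041 in Int (2.02 ± 0.08). CRABP2, a carrier of retinoic acid, rose by 1.09 ± 0.07 and was not called under the length and GC correction (0.90).

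TGF-beta and BMP ligands and receptors had 11 of 35 members called higher and 3 lower (median 0.26), and 7 higher under the length and GC correction. TGFB1 had 5754, 5900.3 and 5342 normalized counts in Lep, against 1574 and 2154 in Int (1.62 ± 0.09). INHBA, the activin subunit (1.64 ± 0.08), BMP7, a bone morphogenetic protein (2.09 ± 0.19), and FSTL1, a secreted follistatin relative (1.57 ± 0.07), also rose. For BMP7 the log2 fold change was 1.61 without Int replicate 1 and 2.57 without Int replicate 2. BMP3, an antagonist within the BMP family, fell to 966, 933 and 934 in Lep, against 5441 and 4838 in Int (−2.44 ± 0.05). TGFB3 (−1.83 ± 0.21) and the co-receptor TGFBR3 (−1.47 ± 0.17) fell, so the ligands TGFB1 and TGFB3 changed in opposite directions.

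Receptor tyrosine kinases had 9 of 32 members called higher and 0 lower (median 0.62). AXL was joined by FGFR3, a fibroblast growth factor receptor (1945, 1890.0 and 2075 in Lep, against 546 and 788 in Int, 1.58 ± 0.11), ROS1 (1.78 ± 0.13) and the neurotrophin receptor NTRK2 (2.24 ± 0.39). The AXL ligands GAS6 and PROS1 were higher too. GAS6 had 1854, 2047 and 1816 normalized counts in Lep, against 247 and 622 in Int (2.28 ± 0.25, with 1.61 without Int replicate 1 and 2.94 without Int replicate 2), and PROS1 rose by 2.21 ± 0.29.

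Among all 38 growth factor ligands, 9 were called higher and 4 lower (median 0.37). IGFBP2 and IGFBP4, which bind insulin-like growth factors and were counted in this list, rose by 3.50 ± 0.14 and 1.70 ± 0.11. The epidermal growth factor receptor ligand EPGN (−1.35 ± 0.16) and FGFBP1, a carrier of fibroblast growth factors (−1.39 ± 0.14), fell.

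In the Wnt pathway 11 of 43 members were called higher and 1 lower (median 0.56, or 0.54 with members at 0 in a group set at their bound), and 6 or 7 higher with a minimum value of 50, with the length and GC correction, or without Int replicate 1. TCF7, a transcription factor of the pathway, had 908, 864 and 881 normalized counts in Lep, against 190.1 and 196 in Int (2.19 ± 0.09). The feedback inhibitor NKD2 (2.53 ± 0.16) and the ligand WNT11 (2.38 ± 0.19) rose, and RNF43, which removes Wnt receptors, rose by 1.16 ± 0.08 but was not called under the length and GC correction (0.93) or without Int replicate 1 (0.99). DKK1, a secreted Wnt inhibitor, fell to 722, 675 and 874 in Lep, against 2585 and 2306 in Int (−1.70 ± 0.09).

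Notch and Hedgehog genes had 7 of 30 members (23.3%, against 11.7% over all tested genes) called higher and 0 lower (median 0.39). The higher calls numbered 3 under quantile normalization and 4 under the length and GC correction or with a pseudocount of 5. HES2, a transcriptional repressor of the HES family (2.19 ± 0.10), and the Hedgehog co-receptors GAS1 (2.40 ± 0.31) and BOC (2.26 ± 0.28) were among the 7. BOC had 470.2, 392 and 383 normalized counts in Lep, against 55.8 and 131 in Int, with a log2 fold change of 1.65 without Int replicate 1 and 2.87 without Int replicate 2.

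Guidance genes, which steer growing axons, had 13 of 39 members called higher and 1 lower (median 0.56), with the lower call lost in 9 alternatives. NTN1, netrin, had 2263, 2237 and 2355 normalized counts in Lep, against 397 and 399 in Int (2.52 ± 0.05, adjusted p = 2.1e-12), and its receptor UNC5A had 536, 549 and 473 in Lep, against 144 and 163 in Int (1.75 ± 0.10). The semaphorins SEMA3D (3.20 ± 0.25) and SEMA7A (2.68 ± 0.16) rose. Of 17 ephrins and Eph receptors, 3 (17.6%, against 11.7% over all tested genes) were called higher, among them EFNB3 (2.14 ± 0.15) and EFNB1 (1.39 ± 0.09).

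Cell surface adhesion genes had 12 of 41 members called higher and 1 lower (median 0.37), with 0 to 2 lower over the alternatives. Beside MCAM, they included ICAM5, which is known from neurons (897, 1052 and 814 normalized counts in Lep, against 84.8 and 98.6 in Int, 3.31 ± 0.12), CEACAM7 (3.88 ± 0.37) and CDH11, a mesenchymal cadherin (2.88 ± 0.39). Genes reported for brain colonization, a list taken from earlier studies of similar derivatives and so not independent evidence, had 9 of 24 members called higher and 2 lower (median 0.80). GJA1, the gap junction protein connexin 43, had 306, 329.8 and 310.0 in Lep, against 4.74 and 12.1 in Int (5.19 ± 0.45), and the actin-bundling protein FSCN1 had 12382, 11538 and 11989.9 in Lep, against 1066 and 2617 in Int (2.84 ± 0.24). Without Int replicate 1 the values were 4.60 and 2.19, and without Int replicate 2 they were 5.78 and 3.49.

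**Figure D4:**
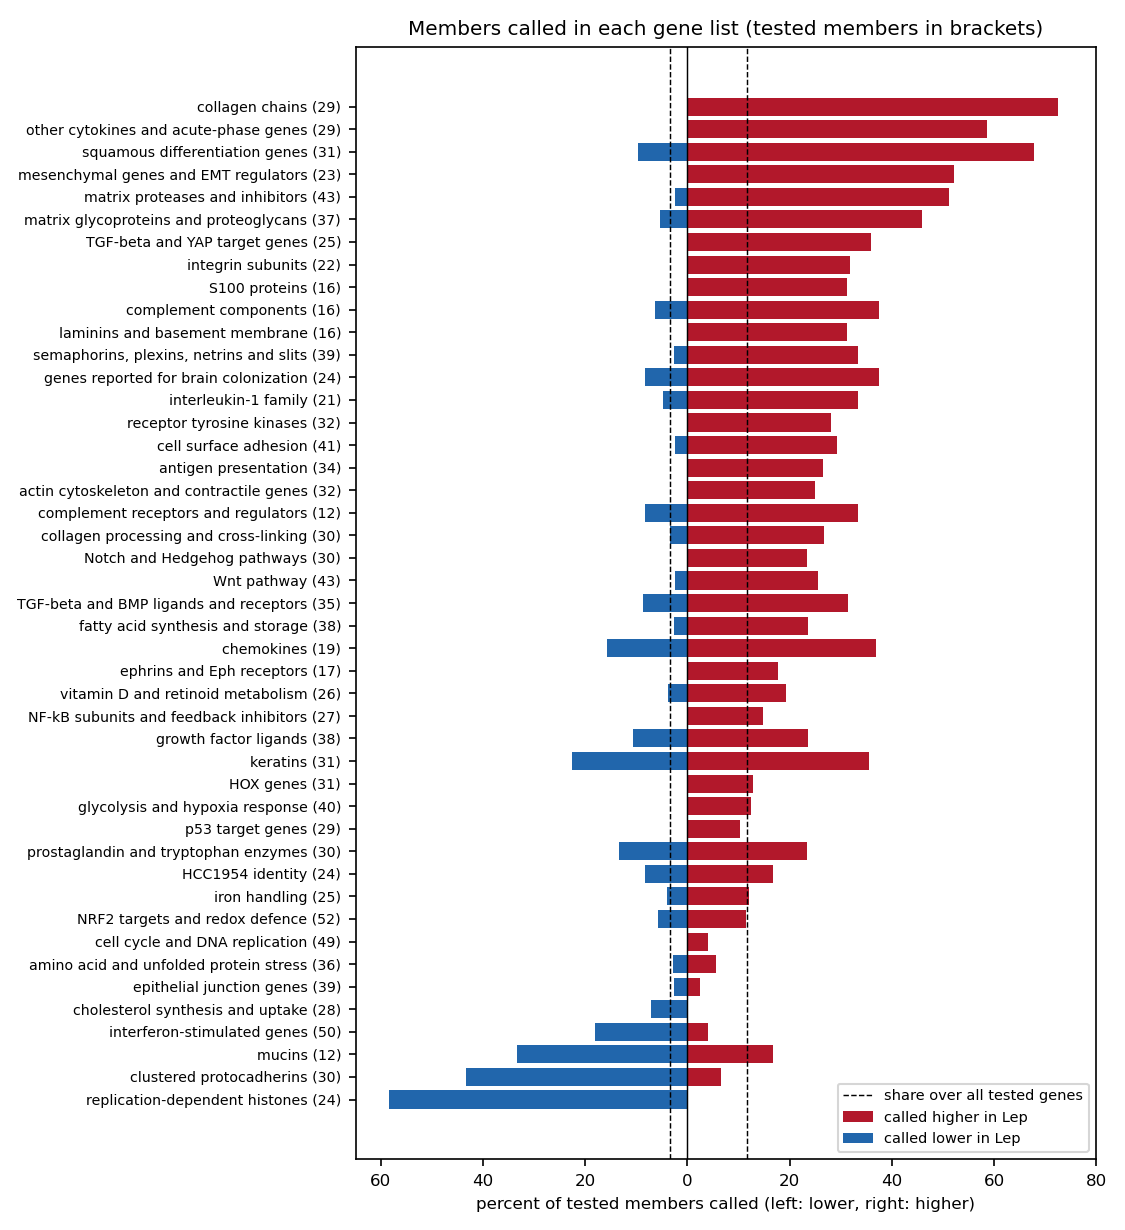
Percent of the tested members of each gene list, host cell markers left out, called higher in Lep (red, to the right) and lower in Lep (blue, to the left). Dashed lines mark the shares over all tested genes, 11.7% higher and 3.47% lower; collagen chains and squamous genes stand near the top with 72.4% and 67.7% higher, and replication-dependent histones at the bottom with 58.3% lower.

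Among metabolic and stress genes, some lists were called at about the background share. Glycolysis and hypoxia genes had 5 of 40 members called higher (12.5%, against 11.7% over all tested genes) and 0 lower (median 0.16), with 1 lower under the length and GC correction. The carbonic anhydrases CA9 (1548, 1747 and 1645 normalized counts in Lep, against 207 and 172 in Int, 3.12 ± 0.13) and CA12 (2.19 ± 0.09), the enolase ENO2 (3.16 ± 0.13) and the peptide hormone adrenomedullin, ADM (2.00 ± 0.12), were 4 of the 5. Fatty acid genes had 9 of 38 members (23.7%) called higher and 1 lower (median 0.05), but 3 in each direction under quantile normalization and 5 higher and 3 lower under the length and GC correction. ACSL4 (1.59 ± 0.06), SCD5 (1.55 ± 0.06) and FADS3 (1.38 ± 0.08), enzymes that activate or desaturate fatty acids, rose, FABP6 rose by 1.23 ± 0.18 but not under quantile normalization (0.86), and PPARG, the lipid-sensing receptor, fell by 1.68 ± 0.10.

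Cholesterol genes had 0 of 28 members called higher and 2 lower (median −0.26, or −0.27 with the member at 0 left out). MVK, the mevalonate kinase, had 155, 162 and 158 normalized counts in Lep, against 429 and 398 in Int (−1.38 ± 0.08), and DHCR7 (−1.01 ± 0.06) was not called under quantile normalization (−0.98), with thinned reads (−0.98), without Lep replicate 2 (−0.97) or without Int replicate 1 (−0.90). Genes of NRF2 and redox defence had 6 of 52 called higher (11.5%, against 11.7% over all tested genes) and 3 lower (median −0.04). The glutathione transferases GSTM4 (2.25 ± 0.08) and GSTM3 (1.76 ± 0.06), which are close relatives with partly shared sequence, rose, while GPX2, a glutathione peroxidase, fell to 2259.7, 2285 and 2275 in Lep, against 6924 and 6428 in Int (−1.55 ± 0.03). The exporter ABCC2 fell by 1.50 ± 0.18 on the log2 scale, with a log2 fold change of −1.96 without Int replicate 1 and −1.05 without Int replicate 2. The exporter ABCC3 rose by 1.12 ± 0.09 but was not called under quantile normalization (0.76) or the length and GC correction (0.83), and its Par mean was 15294, far above both derivatives.

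Of 8 tested metallothionein and zinc transport genes, 2 were called higher and 0 lower: MT1F, with 254, 213 and 195 normalized counts in Lep, against 24.2 and 24.1 in Int (3.13 ± 0.18), and MT1X (2.00 ± 0.09). Metallothionein genes are close copies of each other. Amino acid and unfolded protein stress genes had 2 of 36 (5.56%) called higher and 1 (2.78%) lower (median −0.19), beside 11.7% and 3.47% over all tested genes. The neutral amino acid transporter SLC1A4 had 2243, 1914 and 1943 in Lep, against 248 and 460.0 in Int (2.58 ± 0.18), and TRIB3, a stress-induced pseudokinase, fell by 1.71 ± 0.07. The lipoprotein receptor VLDLR stood at the threshold (1.00 ± 0.12) and kept its call in 8 of 18 alternatives.

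Cell cycle genes differed little: 2 of 49 (4.08%, against 11.7% over all tested genes) were called higher and 0 lower (median 0.00). Under quantile normalization, the length and GC correction or without Int replicate 2, 1 was called lower. CDKN1A, the cell cycle inhibitor p21, had 3939, 3713 and 3728 normalized counts in Lep, against 1636 and 1753 in Int (1.16 ± 0.04; 0.92 and not called under the length and GC correction). With BBC3, a pro-apoptotic protein (1.73 ± 0.13), and GADD45A, a stress sensor (1.48 ± 0.09), it was 1 of 3 higher genes among 29 p53 targets (10.3%, against 11.7% over all tested genes, median −0.03), of which 0 were lower, or 1 to 2 with the length and GC correction. Of 31 HOX genes, 4 were called higher (12.9%, against 11.7% over all tested genes) and 0 lower, among them HOXD11 (1.73 ± 0.30), but quantile normalization called 4 lower and a minimum value of 50 left 1 higher call.

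Most tested histone genes were lower. Of 24 replication-dependent histone genes, whose transcripts mostly lack poly(A) tails and are therefore caught only in part by this library type, 14 (58.3%) were called lower and 0 higher (median −1.07). HIST1H2BK had 1190.2, 1241 and 1254 normalized counts in Lep, against 3078 and 2958 in Int (−1.30 ± 0.04, adjusted p = 5.8e-11). HIST1H2AC (−1.23 ± 0.09), HIST1H2BD (−1.20 ± 0.11) and HIST1H4H (−1.37 ± 0.20) fell by similar amounts. The summed level of the list was 3116 to 3332 in Lep, against 6966 to 7558 in Int, with 4827 to 5074 in Par and 8536 to 9884 in BrM, so Lep was the lowest of the 4 HCC1954 groups. The median of the cell cycle list was 0.00 in the same libraries, and a link between the lists was not tested.

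A list of mucins that also holds trefoil factors, MUCL1 and OVGP1 had 2 of 12 tested members called higher and 4 lower (median −0.72). MUC5B, a gel-forming mucin, had 389, 377 and 401 normalized counts in Lep, against 874 and 861 in Int (−1.15 ± 0.07), and MUC4, a membrane mucin, had 1433, 1569 and 1356 in Lep, against 336 and 570.2 in Int (1.73 ± 0.15). The number of lower members was 2 with DESeq2, with a pseudocount of 5, with thinned reads or without Int replicate 2. Clustered protocadherins, cell surface proteins whose genes sit in 3 tandem arrays, had 13 of 30 called lower and 2 higher (median −0.86, or −0.93 with members at 0 in a group at their bound). They were weakly expressed, with a summed level of 694 to 725 in Lep, against 1148 to 1262 in Int. No member passed the level required of named genes, and the lower calls numbered 5 with a pseudocount of 5 or a minimum value of 50, 7 without Int replicate 1 and 8 with DESeq2 or thinned reads.

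For most called genes, Int replicate 2 was nearer to Lep than Int replicate 1 was. Of the 1817 genes called higher in Lep, 1286 (70.8%) were higher in Int replicate 2 than in Int replicate 1, and of the 540 called lower, 403 (74.6%) were lower in Int replicate 2. Among the 13204 genes not called, Int replicate 2 was the higher library for 43.3%. Of 74 genes over 2-fold higher in Int replicate 2, 56 were called higher in Lep and 3 lower, whereas of 22 genes over 2-fold lower in Int replicate 2, 5 were called higher in Lep and 7 lower. Whether the Int replicates came from separate animals or cultures is not stated, and the part this difference plays in the result was not tested. Without Int replicate 1, 1584 genes were called higher and 432 lower, and without Int replicate 2, 1877 and 564. OASL, IFIT1, RSAD2 and IFI27 differed from this pattern, since all 4 were higher in Int replicate 2 and lower in Lep.

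**Figure D5:**
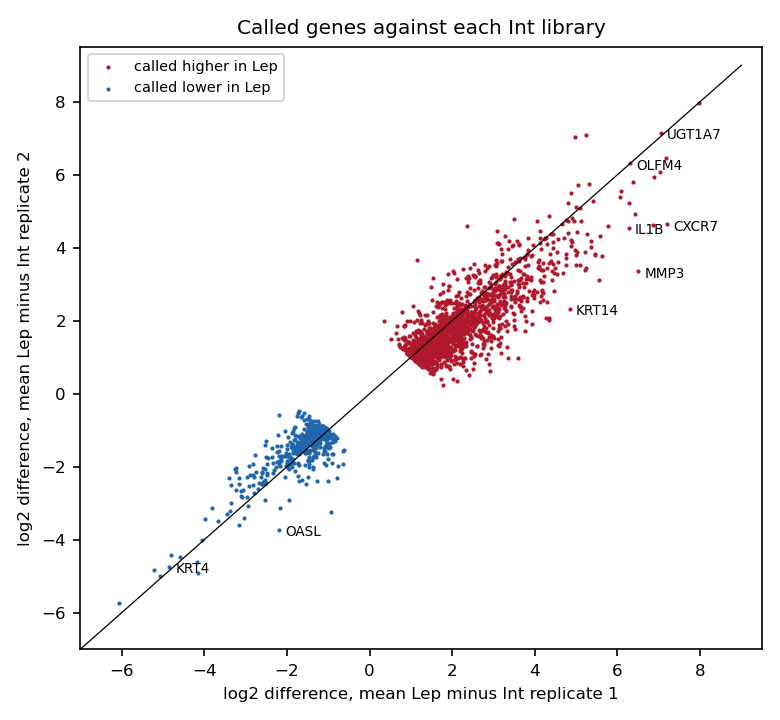
Log2 difference between the mean of the 3 Lep libraries and Int replicate 1 (horizontal) and Int replicate 2 (vertical) for every called gene, on log2(value + 1). Red points were called higher in Lep and blue points lower; the line marks equal differences, and most red points lie below it, nearer to 0 against Int replicate 2, with MMP3, KRT14 and CXCR7 among the farthest.

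Of 69 markers of host cells, 12 were at 0 and 40 under 10 in all 5 libraries. The sources do not say whether reads from mouse cells could enter the counts. At 0 in all 5 libraries were CD163, TMEM119 and TYROBP of 13 macrophage markers, COL1A2 of 13 fibroblast and meningeal markers, EMCN of 12 endothelial markers, CD2, CD3D, CD3E and CD3G of 11 lymphocyte markers, and KL, OTX2 and TTR of 8 choroid plexus markers. Under 10 in all 5 libraries were 9, 7, 4, 8 and 5 markers of those lists, and 7 of 12 neural markers. Summed macrophage markers were 2498 to 2772 normalized counts in Lep, against 1065 to 1332 in Int. Nearly all of that sum was CD68, a lysosomal protein that tumour cells also express (2574, 2483 and 2309 in Lep, against 990.1 and 1250.5 in Int, 1.14 ± 0.08, and not called under the length and GC correction or without Int replicate 1). Of the tested markers, 3 of 4 for macrophages, 2 of 6 for fibroblasts, 4 of 8 for endothelium, 1 of 2 for lymphocytes, 1 of 6 for neural cells and 1 of 4 for choroid plexus were called higher, and 1 endothelial and 1 choroid plexus marker lower, beside 11.7% higher and 3.47% lower over all tested genes. The length and GC correction called 2 macrophage, 0 fibroblast, 2 endothelial and 0 lymphocyte markers higher, and quantile normalization called 2 endothelial, 0 lymphocyte, 0 neural and 0 choroid plexus markers higher and 1 neural marker lower. Summed fibroblast and meningeal markers were 28270 to 32375 in Lep, against 14266 to 16287 in Int, mostly CRABP2, and summed endothelial markers 1343 to 1414 in Lep, against 1366 to 1417 in Int. PECAM1, an endothelial adhesion molecule, fell to 76.2, 72.4 and 55.0 in Lep, against 210.1 and 176 in Int (−1.50 ± 0.12). The part of host cells in the results was not tested.

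The 30 largest changes were also read in the Lep and Int libraries of the other human models, PC9, a lung adenocarcinoma line, and MDA-MB-231, a breast carcinoma line, whose values were normalized separately. Of the 15 largest increases, 2 reached a mean of 100 in PC9 and 0 of these moved at least 2-fold with separated libraries. In MDA-MB-231, 6 reached that mean, of which 1 was higher and 2 were lower in Lep. Of the 15 largest decreases, 11 reached it in PC9, with 1 lower and 1 higher in Lep, and 7 in MDA-MB-231, with 0 lower and 1 higher. These are descriptions of 2 Lep and 2 Int libraries per model, with no test across models and no share over all genes of those models.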

How the data were processed

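RNA from the HCC1954 stages was analysed from the authors' deposited table of normalized counts. Each deposited signal value equals a read count scaled by a factor of its library, so whole reads could be recovered (100% of values whole, tolerance 0.01). The submitters' processing notes name FastQC 0.11.3, HTSeq 0.5.4, DESeq2 and the build hg19 (GRCh37) and no role for them. The aligner was not stated in the sources used here. Because the values are not raw counts, log2(value + 1) was tested with limma-trend (limma 3.58.1, R 4.3.3), for genes reaching 10 in at least 2 of the 10 HCC1954 libraries. The pseudocount of 1 understates fold changes of low genes. All 4 stages entered 1 fit and the contrast was Lep minus Int. Tests were two-sided and adjusted over all 15561 genes. In simulated data of this comparison, over 15210 genes, 98.0% of 4-fold and 29.6% of 2-fold changes were recovered with 0 false calls. The simulation gave all groups the same spread at a given level, whereas the real Int libraries differed more than the Lep libraries. These values are therefore not error rates of the real comparison. A simulated 2-fold change lies exactly at the size required for a call, so that cutoff alone keeps its recovery low.

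The members and the 52 lists were chosen with earlier results of these data known. Named genes are the 15 largest called changes in each direction with complete separation whose higher group averaged at least 100, up to 4 such members per list and direction, and C3, LCN2, SLC22A17 and ERBB2, 195 in all. The alternatives were quantile normalization, TMM scaling, edgeR 4.0.16 and DESeq2 1.42.0 on recovered reads, pseudocounts of 0.5 and 5, no filter or a minimum of 50, Lep and Int only, thinned reads, a replicate block, a length and GC correction, and leaving out each library. Promoter windows came from RefSeq on GRCh38.p14; their coordinates were not combined with the hg19 counts. The tables of PC9 and MDA-MB-231, also the authors' deposited signal values, gave side by side values only, and the mouse line LLC was not used. A count of 0 in a library allows for 3 reads by counting error alone. Values of a few members are not reported here.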

Additional observations from a re-analysis of the deposited data

Results flagged for a closer look

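Of the 195 named genes, 24 lay at least 2-fold on the other side of Int in MDA-MB-231 and 3 in PC9, with complete separation of the Lep and Int libraries in both models and a mean of at least 100 in Lep or Int of the other model. By the same limits, 11 lay on the same side as in HCC1954 in MDA-MB-231 and 4 in PC9. With no limit on level or size, 64 separated the opposite way and 32 the same way in MDA-MB-231, and 48 and 33 in PC9. The shares over all genes of those models were not counted, so these counts do not set the named genes apart from other genes. The values come from tables normalized separately, the difference between models was not tested, and each other model had 2 Lep and 2 Int libraries. Differences are log2 means of Lep minus Int on log2(value + 1).

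CYP24A1, at 6.82 in HCC1954, differed by −1.23 in MDA-MB-231, with 87.7 and 97.1 normalized counts in Lep, against 241 and 197 in Int. TIMP3, at 5.83 in HCC1954, differed by −1.67 in MDA-MB-231, with 26434 and 7499 in Lep, against 41654 and 48038 in Int. LCN2, at 0.68 in HCC1954, differed by −1.66 in MDA-MB-231, with 299.5 and 38.1 in Lep, against 339.9 and 345 in Int. For TIMP3 and LCN2 the MDA-MB-231 Lep libraries were far apart, and LCN2 in the first of them lay close to the Int values.

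The other matrix genes higher in HCC1954 and lower in the MDA-MB-231 Lep libraries were HSPG2 (−1.52), LAMA3 (−1.38) and ITGA1 (−1.88), the last with 1619 and 1992 in Lep, against 4966 and 8822 in Int. The immune genes of this kind were CCL2 (−2.07), CSF2 (−1.96), C1R (−1.09), GBP2 (−1.70), HLA-DPA1 (−2.98), HLA-DRB5 (−3.35) and HLA-DMB (−1.94). HLA-DRB5 had 248 and 32.9 in Lep, against 970 and 899.9 in Int. The remaining ones were S100A4 (−1.56), the exporter ABCC3 (−3.10), the carbonic anhydrases CA9 (−2.19) and CA12 (−2.48), and VLDLR (−1.21).

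Lower in HCC1954 and higher in the MDA-MB-231 Lep libraries were OASL (1.96), KRT18 (1.21) and the histone genes HIST1H4H (1.73), HIST1H2BK (1.81), HIST1H2AC (1.39) and HIST1H2BD (1.70). OASL had 556 and 947 in Lep, against 216 and 160.1 in Int, and HIST1H2BK had 7120.2 and 18977 in Lep, against 3582 and 3046 in Int.

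In PC9, KRT4, at −4.80 in HCC1954, differed by 1.09, with 64.5 and 172 in Lep, against 40.9 and 59.0 in Int. IFI27, at −2.0 in HCC1954, differed by 4.26, with 156 and 77.7 in Lep, against 5.66 and 4.10 in Int. CALD1, at 4.54 in HCC1954, differed by −1.35, with 488 and 191 in Lep, against 740 and 820.3 in Int.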

How the results depend on the processing

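No named gene changed direction and 0 genes were called in the opposite direction under any alternative. The counts that moved beyond 1.5 times, or in their split by over 10 percentage points, were these: quantile normalization gave 954 lower calls and 58.0% of calls higher, and the length and GC correction gave 63.8% higher. In each case the cause was not tested. The length and GC correction covered 14803 genes (95.1%). Over the other scalings and tools, edgeR and DESeq2 on recovered reads called 1837 and 1764 genes higher and 547 and 474 lower. TMM scaling gave 1760 and 559. Pseudocounts of 0.5 and 5 gave 1826 and 1585 higher and 546 and 413 lower. No filter (20064 genes) gave 2090 and 610, a minimum of 50 gave 1304 and 419, and a fit of Lep and Int alone gave 1806 and 499. Leaving out 1 library gave 1584 to 1877 higher and 432 to 564 lower calls. Both ends came from the Int libraries.

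Small counts in lists also moved: lower calls ranged from 1 to 3 for matrix glycoproteins and brain colonization genes, from 1 to 2 for complement components, Wnt, cholesterol and amino acid stress genes, and from 0 to 1 for ephrins.

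Same-numbered libraries did not deviate together, with correlations of deviations of −0.01 for both numbers that Lep and Int share, so they were taken to share only a number. A replicate block left 1833 higher and 540 lower calls, and the block together with the length and GC correction gave 1390 and 791, with 63.7% higher.

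Of 195 named genes, 14 changed call without Int replicate 1, 2 without Int replicate 2, 9 with quantile normalization and 16 with the length and GC correction. The fold of 24 genes moved over 1.5 times without either Int library, and of 0 genes without any Lep library. Of 174 tested genes at 0 throughout Lep or throughout Int, 30 were called, and their fitted folds depend on the pseudocount. With 2 Int libraries and a cutoff on size, a gene not called is not shown to be unchanged. The simulated recovery of 29.6% for 2-fold changes was limited by that cutoff, so it does not measure the effect of the number of libraries.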
